A study of Rattus norvegicus with 20 samples.

Results

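The cytosolic ribosomal protein genes were examined in liver RNA-seq of 20 male rats (1 library each). Rows of the expression table were taken when the gene name was Rpl or Rps followed by a number, or was Rplp0, Rplp1, Rplp2 or Rpsa, and when the row averaged at least 1 TPM, a transcript abundance corrected for transcript length and library total, over the 20 libraries. Of 108 rows with such names, 10 were kinases of the Rps6k family and were left out, and 13 were under the mean of 1 TPM. That left 85 rows of 32883. By name alone, 50 (Rpl) were counted as large-subunit rows and 35 (Rps, Rps19bp1 included) as small-subunit rows. The rows were thus selected on their mean TPM over all libraries, and on no difference between groups. The row just inside the limit was a second Rps27a row (ENSRNOG00000004426, mean 1.56 TPM), and the row just outside it was an Rpl21 row (ENSRNOG00000049848, mean 0.197 TPM). The 85 rows carry 78 names, since 7 names have 2 rows each (Rpl7a, Rpl21, Rpl32, Rps4x, Rps10, Rps19l2 and Rps27a). For 81 rows the deposited annotation gives a cytosolic ribosomal protein, and the exceptions are Rps19bp1, Rpl22l1, Rpl7l1 and Rpl10l. Rps19bp1 encodes a protein that binds ribosomal protein S19 and is not itself a ribosomal protein, and the other 3 are paralogs of ribosomal protein genes.

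There were 5 rats in each of 4 groups. KYDS+BGZ_L rats received hydrocortisone at 25 mg/kg together with BGZ_L powder at 0.9 g/kg, KYDS rats received hydrocortisone at 25 mg/kg alone, BGZ_L rats were given that powder alone, at 0.9 g/kg, and CON rats received 0.5% CMC-Na, a carrier. The series title ties BGZ_L to Psoraleae Fructus, a plant drug, and hydrocortisone, a glucocorticoid, to a rat model of kidney-yang deficiency syndrome. Whether the other 3 groups also received CMC-Na is not given in the labels.

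Every ribosome carries about the same set of ribosomal proteins together with its ribosomal RNA, and cells make the proteins in matched amounts. The mRNAs of vertebrate ribosomal proteins begin with a terminal oligopyrimidine (TOP) tract, a C followed by a run of C and T, through which mTORC1 and the protein LARP1 control their translation. In liver, ribosome production follows feeding, growth and regeneration, and glucocorticoids change the protein economy of the organ.

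The deposited values were read as TPM and summed to between 914343 and 983962 per library. TPM keeps no read totals, so the depth behind each value is unknown and a row listed at 0 carries no upper limit. The 13 mitochondrially encoded genes took 19.2% (KYDS 3) to 90.1% (CON 2) of a library, so a trimmed mean of the log ratios was used to bring libraries to one scale, and levels below are scaled TPM unless another unit is named. The 11 hepatocyte markers summed to 10290 to 47550 scaled TPM in KYDS+BGZ_L and to 7529 to 64550 in KYDS, against 6149 to 8819 in BGZ_L and 6427 to 12540 in CON, and none of the 11 was at 0 in every library. Ribosomal RNA and signal recognition particle RNA genes took 40.7% of the nuclear TPM of BGZ_L 1, 36.04% of CON 2 and 29.8% of CON 5, and at most 18.5% of the other 17 libraries.

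Ribosomal protein rows differed in level by about 3 orders of magnitude. The highest means were those of Rpl37 (1238 scaled TPM), Rpl35 (1105 scaled TPM), Rpl41 (940.2 scaled TPM), Rplp1 (678 scaled TPM) and Rpl36 (613 scaled TPM), which encode proteins of the large subunit; Rplp1 belongs to the stalk that recruits translation factors. The lowest were those of the second Rps27a row (1.39 scaled TPM), Rpl10l (1.54 scaled TPM), Rpl7l1 (5.01 scaled TPM), Rps4y2 (6.56 scaled TPM) and Rpl38 (8.68 scaled TPM). The low Rpl38 value belongs to that row only, as shown further on, and the other 4 are a second row or paralogs. With the rows of each of 80 annotated proteins summed, means ran from 1279 scaled TPM (L38) to 43.7 scaled TPM (S27-like, the Rps27l row). Rpl10l and Rpl7l1 are not among those 80. All 85 rows passed the filter on low values, 81 of them were above 0 in every library, and 4 were listed at 0 in 1 or more libraries.

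Within a group, the ribosomal protein rows went up and down together from rat to rat. The median within-group SD of the 85 rows was 0.474 on the log2 scale, and it was 0.271 after each library had been centred on the median of these rows. Centring lowered the SD of 73 of 85 rows (85.9%), against 2657 of 11784 other tested genes (22.5%), whose median SD was 0.679 after centring and 0.537 before. The rows themselves set the median they were centred on, so these values are a description and no test. Rps3, which encodes a small-subunit protein at the entry of the mRNA channel, was among the rows with the smallest centred spread. It was measured at 232, 121, 124.5, 197 and 170.2 scaled TPM in KYDS+BGZ_L libraries 1 to 5, at 78.3, 102, 188.5, 79.7 and 199 in KYDS, at 95.1, 181, 141, 159 and 144 in BGZ_L, and at 158, 150.5, 145, 129 and 117 in CON. Libraries KYDS+BGZ_L 1, KYDS+BGZ_L 4, KYDS 3 and KYDS 5 were the highest for Rps3, and the 4 groups overlapped. The rows at the top of the map of centred values (Rpl30, Rpl38, Rps6 and the second Rpl32 row) did not follow the others.

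**Figure D1:**
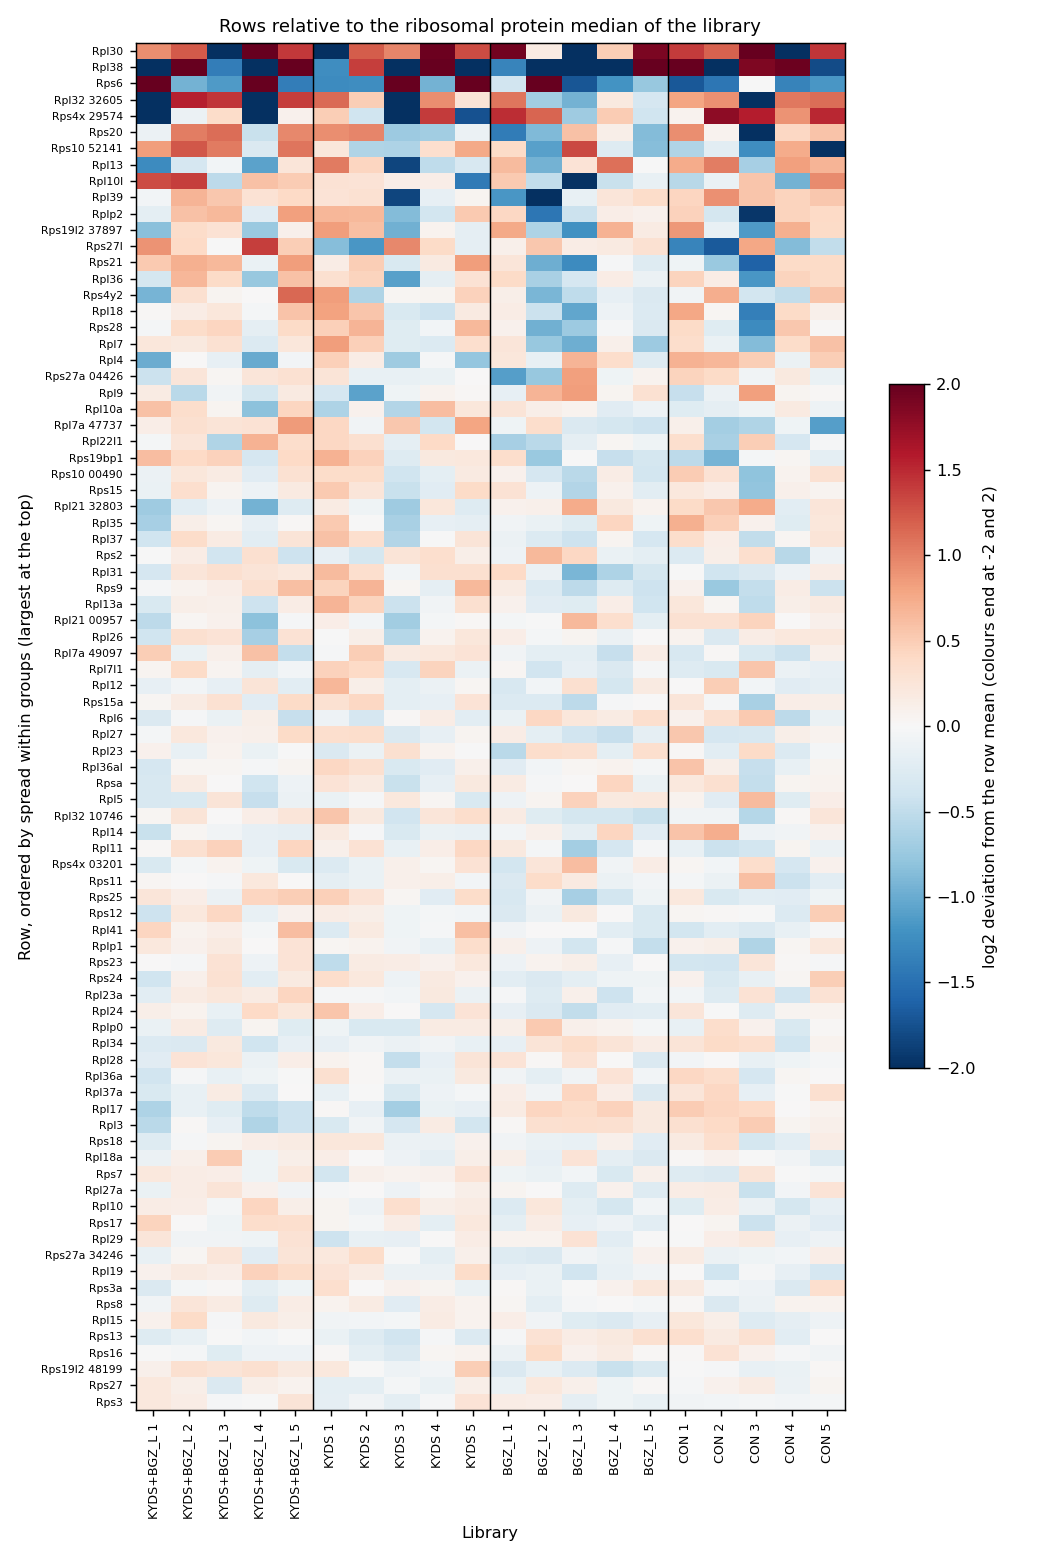
Ribosomal protein rows (vertical, 84 of the 85) in each of the 20 libraries (horizontal, groups in order KYDS+BGZ_L, KYDS, BGZ_L, CON), as log2 of scaled TPM relative to the median ribosomal protein row of the library and to the row's own mean. Colours end at -2 and 2. Most rows are pale, with a median within-group SD of 0.271, whereas Rpl30, Rpl38, Rps6 and the second Rpl32 row at the top switch between high and low in single libraries.

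The shared feature that RefSeq start-site sequences allow to be shown is the TOP tract. Of the 78 names, 62 matched the RefSeq promoter table of build GRCr8, which gave 63 windows of 250 bases before and 50 bases after the annotated start. A C followed by 4 bases that are each C or T began exactly at the annotated start in 20 of the 63 windows (31.7%), against 2.63% of all 33469 windows, and within 5 bases of it in 37 of 63 (58.7%), against 17% of all windows. The windows below cover 10 bases before and 20 bases from the start on, in the direction of transcription, with the C and pyrimidine run in capitals. The first 5 are rows with such a tract, among them Rplp1 and Rpl37 of the highest level and Rpl17, whose level is described further on.
Rplp1, chr8:71290853-71290882, minus strand: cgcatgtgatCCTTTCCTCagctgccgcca
Rpl37, chr2:55942935-55942964, plus strand: ggcgtaCTTTCTCTTCCggtctctttggcc
Rps27, chr2:177964587-177964616, minus strand: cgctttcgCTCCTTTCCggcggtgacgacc
Rpl39, chrX:121195877-121195906, minus strand: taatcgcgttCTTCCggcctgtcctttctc
Rpl17, chr18:70856266-70856295, plus strand: ttcgcgCTTCCTCTTCCTgttagcggccag
The next 4 are names without such a tract in this window, shown because Rps27l and Rps19bp1 are a paralog and a binding partner, Rps6 has a row that departs from the rest, and Rpl3 is described beside Rpl17.
Rps27l, chr8:76443648-76443677, plus strand: ttcatttgtcattatttgtggtgtccagag
Rps19bp1, chr7:113693004-113693033, minus strand: tgtgggcggggcttggcagcatgtcggcgg
Rps6, chr5:106420521-106420550, minus strand: ctcctaggcggtcggctgtgtcaagatgaa
Rpl3, chr7:113507971-113508000, minus strand: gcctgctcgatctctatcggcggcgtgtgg
A missing tract says only that these letters are not near the annotated start, which may itself be displaced. In the 250 bases upstream, searched on both strands, CCGGAAG was present in 25.4% of the 63 windows, against 7.27% of all windows. GGGCGG was present in 60.3%, against 30.5% of all windows, and TATAAA in 12.7%, against 12.9% of all windows. The upstream region of Rps6 holds CCGGAAG, the core of ETS factor motifs, shown here in capitals.
Rps6 CCGGAAG, chr5:106420651-106420681, minus strand: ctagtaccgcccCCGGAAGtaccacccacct
The median log2 fold change for KYDS against CON was -0.22 over the 40 rows of names with the tract near the start and -0.10 over the 27 rows of names without it, and the difference was not tested.

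The share of nuclear TPM taken by the 85 rows overlapped between all 4 groups. It was 6.44%, 6.02%, 4.52%, 5.76% and 6.78% in KYDS+BGZ_L libraries 1 to 5 and 4.64%, 6.44%, 5.54%, 4.76% and 7.46% in KYDS libraries 1 to 5. The shares were 1.05%, 7.44%, 4.05%, 8.77% and 8.96% in BGZ_L libraries and 9.13%, 5.36%, 7.03%, 7.70% and 3.49% in CON libraries. Group means were 5.90% ± 0.87 in KYDS+BGZ_L, 5.76% ± 1.19 in KYDS, 6.05% ± 3.42 in BGZ_L and 6.54% ± 2.18 in CON (SD, n = 5 each), so the means differed by less than the SD within BGZ_L or CON. The lowest share, in BGZ_L 1, was 1.77% with ribosomal RNA and signal recognition particle RNA genes out of the denominator, and CON 2, whose share of those RNAs was close to that of BGZ_L 1, was at 5.36% with them and 8.39% without them. Bulk tissue values cannot tell apart fewer cells of a type and less RNA per cell.

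**Figure D2:**
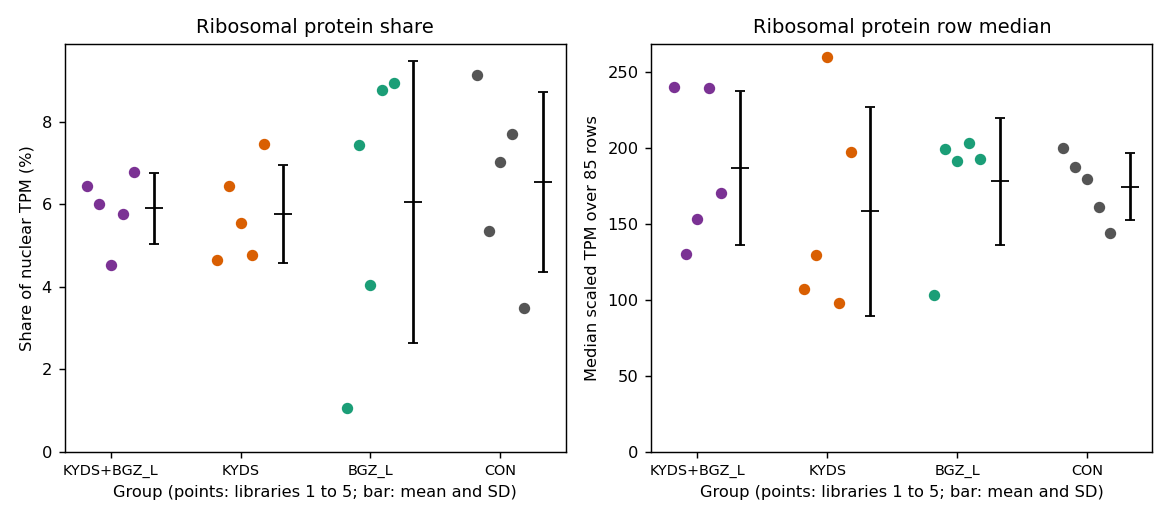
Left, the 85 ribosomal protein rows as a percentage of nuclear TPM; right, the median scaled TPM over these rows. Points are libraries 1 to 5 of each group and bars are the mean and SD (n = 5). The groups overlap in both panels, and BGZ_L 1 lies lowest in its group at 1.05% and at 103 scaled TPM.

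The median level of the rows varied most among KYDS libraries and least among CON libraries. It was 240.2, 130.1, 153, 239 and 170.2 scaled TPM in KYDS+BGZ_L libraries and 107, 130, 260, 97.6 and 197 in KYDS libraries, against 103, 199, 191, 203 and 192 in BGZ_L libraries and 200, 187, 180, 161 and 144 in CON libraries. The 3 highest medians (KYDS 3, KYDS+BGZ_L 1 and KYDS+BGZ_L 4) were found in the 3 libraries with the lowest mitochondrial shares, 19.2%, 26.6% and 35.1%. These libraries also held the 3 highest hepatocyte marker sums, 64550, 42220 and 47550 scaled TPM. KYDS 5, with a nearly equal mitochondrial share of 35.25%, had a median of 197. BGZ_L 1, with a mitochondrial share of 39.6%, and KYDS 4, with 68.8%, had the low medians of 103 and 97.6. The part of the mitochondrial share or of hepatocyte content in the ribosomal protein level was not tested.

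**Figure D3:**
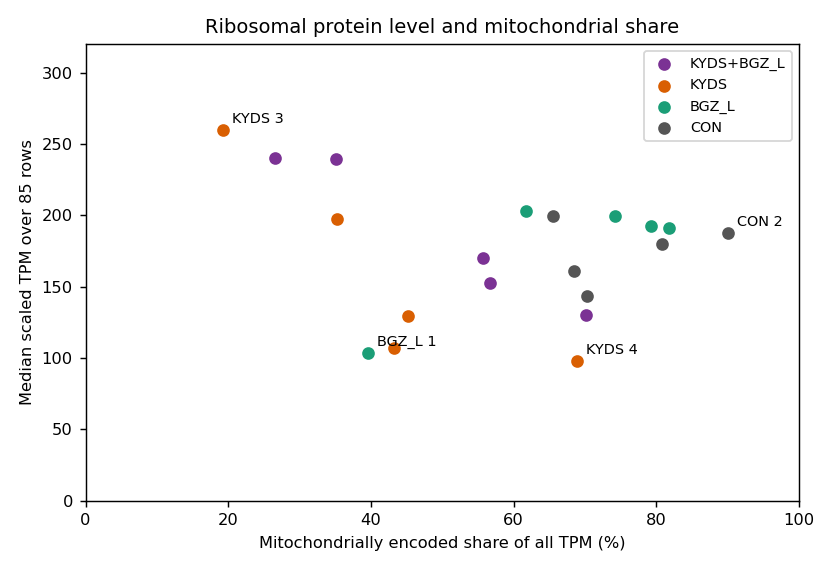
Median scaled TPM over the 85 ribosomal protein rows (vertical) against the mitochondrially encoded share of all TPM (horizontal) in the 20 libraries, coloured by group. The 3 libraries with the smallest mitochondrial shares have the highest medians, 239 to 260. KYDS 5, next at 35.25%, has 197, and libraries from 39.6% upward range from 97.6 to 203 with no shared order.

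After hydrocortisone alone, most ribosomal protein rows had small negative fold changes, of which 1 passed the test. In KYDS against CON, 68 of the 85 rows lay below 0 and 17 above, with a median log2 fold change of -0.20, beside 0.05 over all 11869 genes tested. The median was also below 0 under median-ratio scaling (-0.27) and over nuclear TPM (-0.11), but without scaling the median was 1.16, where the median of all genes was 1.03. With 1 library left out, the median of the rows was -0.025 without KYDS 4, -0.11 without KYDS 1 or CON 1, -0.33 without KYDS 3 and -0.31 without KYDS 5. At an adjusted p under 0.05 in limma, 1 row was lower and 0 were higher, a share of 1.18%, against 6.27% of all tested genes called in that comparison. At an unadjusted p under 0.05, 7 rows were called, all lower, a share of 8.24%, against 24.1% of all genes. Without scaling, 11 rows were higher at an adjusted p under 0.05, a share of 12.9%, against 48.2% of all genes called higher in that fit.

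In rats that also received BGZ_L, the median after hydrocortisone lay on the other side of 0. For KYDS+BGZ_L against BGZ_L, 61 rows lay above 0 and 24 below, and the median log2 fold change was 0.24, beside 0.06 over all genes. It was 0.075 without BGZ_L 1, the library with the lowest ribosomal protein share, and it was 0.17 under median-ratio scaling, 0.31 over nuclear TPM and 1.04 without scaling. None of the 85 rows was called by limma at an adjusted p under 0.05, against 17.4% of all genes, and 8 rows (5 higher and 3 lower) had an unadjusted p under 0.05, a share of 9.41%, against 32.3% of all genes. Without scaling 3 rows were higher, against 14.9% of all genes called higher. KYDS against CON and KYDS+BGZ_L against BGZ_L share no libraries. Of the rows, 24 were below 0 in both, 17 above 0 in both, and 44 below 0 in the first and above 0 in the second.

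The difference between these 2 responses, the interaction of BGZ_L and hydrocortisone, had a median of 0.38 over the 85 rows and was above 0 in 83 of them. It was 0.22 without KYDS 4 and 0.233 without BGZ_L 1. Without scaling the median was -0.15, where that of all genes was -0.41. Limma called 0 rows at an adjusted p under 0.05, against 0.0253% of all genes, and 2 rows (Rpl39 and Rpl10l) had an unadjusted p under 0.05, a share of 2.35%, against 3.77% of all genes. The rows move as a block within a library, so a count of rows on one side of 0 does not come from 83 separate observations.

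Adding BGZ_L to hydrocortisone went with positive fold changes of nearly all rows, none of which passed the test. In KYDS+BGZ_L against KYDS, 83 of 85 rows lay above 0, with a median of 0.30 beside -0.02 over all genes. The median was 0.045 over nuclear TPM and 0.147 without KYDS 4. The sign turned without scaling, where the median of the rows was -0.13 and that of all genes -0.36. Limma called 0 rows, against 0.126% of all genes, and at an unadjusted p under 0.05 it called 1, Rpl10l, a share of 1.18%, against 3.41% of all genes. In BGZ_L against CON the median was -0.09, with 32 rows above 0 and 53 below. It was 0.073 without BGZ_L 1, -0.003 without CON 1, -0.035 without CON 2, -0.147 without BGZ_L 4, 0.003 without scaling and -0.34 over nuclear TPM. Limma called 0 rows at an adjusted p under 0.05, against 0% of all genes, and 1 row, Rpl39, at an unadjusted p under 0.05, against 6.02% of all genes.

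The comparison of KYDS+BGZ_L with CON, both agents against the carrier, gave a median of 0.12 (54 rows above 0 and 31 below), which was -0.06 over nuclear TPM. It was 0.042 to 0.053 without KYDS+BGZ_L 1, KYDS+BGZ_L 4 or CON 4, and 0.192 to 0.213 without KYDS+BGZ_L 2, KYDS+BGZ_L 3 or CON 1. Limma called 1 row, lower, a share of 1.18%, against 11.5% of all genes, and 10 rows (5 higher and 5 lower) had an unadjusted p under 0.05, a share of 11.8%, against 28.7% of all genes. Without scaling 2 rows were higher, against 12.9% of all genes called higher. In the 5 pairwise comparisons the share of ribosomal protein rows called was thus below or equal to that of all genes. The medians of the subunits were close to each other: in KYDS against CON the 50 large-subunit rows had a median of -0.22 and the 35 small-subunit rows one of -0.14, and in KYDS+BGZ_L against BGZ_L the medians were 0.21 and 0.24.

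**Figure D4:**
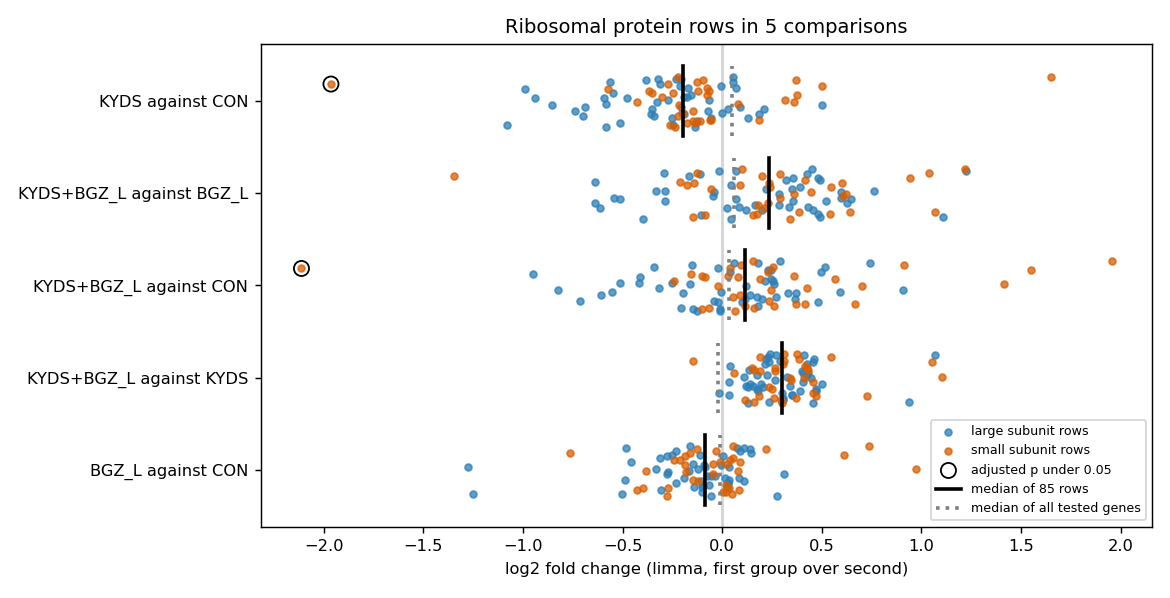
Log2 fold changes (horizontal) of the 85 ribosomal protein rows in 5 comparisons (vertical). Large-subunit rows are blue and small-subunit rows orange, set by name, with Rps19bp1 among the latter. Black bars are the median of the rows, dotted bars that of all tested genes, and circles mark adjusted p under 0.05 in limma. Medians are -0.20, 0.24, 0.12, 0.30 and -0.09 from top to bottom, and without scaling 1.16, 1.04, 1.03, -0.13 and 0.003. The circled point is the second Rps4x row in both cases.

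Among small-subunit genes, the row that fell was the second of 2 rows named Rps4x, the X-linked gene of ribosomal protein S4. This row (ENSRNOG00000029574) had 3.79, 9.37, 15.8, 1.69 and 14.4 scaled TPM in KYDS+BGZ_L libraries 1 to 5 and 11.9, 7.66, 3.06, 20.8 and 4.38 in KYDS, against 23.2, 36.5, 9.12, 23.2 and 11.5 in BGZ_L and 16.9, 53.2, 43.3, 24.2 and 33.2 in CON. All KYDS+BGZ_L values lay below all CON values, and KYDS overlapped CON by 1 library. The log2 fold change was -1.96 ± 0.56 (SE) in KYDS against CON (adjusted p = 0.0456, limma) and -2.11 ± 0.56 in KYDS+BGZ_L against CON (adjusted p = 0.0226, limma). The call in KYDS against CON was lost in 10 of 20 fits with 1 library left out, namely KYDS 1, 2, 3 or 5, CON 1, 2, 3 or 5, and BGZ_L 4 or 5, with adjusted p from 0.0216 to 0.122 over the 20. The call in KYDS+BGZ_L against CON was lost without KYDS+BGZ_L 1 or 4 or CON 2, with adjusted p up to 0.0803. Scaling mattered too. In KYDS against CON the value was -0.65 without scaling (adjusted p = 0.356, limma), -0.93 with a covariate for the nuclear to mitochondrial balance (0.847), -1.88 over nuclear TPM (0.184) and -1.71 scaled on the ribosomal protein median (0.158). In KYDS+BGZ_L against CON these values were -1.23 (adjusted p = 0.139, limma), -1.27 (0.437), -2.27 (0.0816) and -2.14 (0.0732), so both calls were lost under all 4 settings. The 4 lowest values of this row, in KYDS+BGZ_L 1, KYDS+BGZ_L 4, KYDS 3 and KYDS 5, came from the 4 libraries with the highest hepatocyte marker sums (35690 to 64550 scaled TPM), whose part in the result was not tested.

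The main Rps4x row (ENSRNOG00000003201), with a mean of 110.5 scaled TPM, had a log2 fold change of -0.25 ± 0.36 in KYDS against CON (adjusted p = 0.711, limma). Reads of the 2 rows and of the paralog Rps4y2 could be split between them, and the 3 rows summed gave -0.44 ± 0.30 (adjusted p = 0.386, limma). The summed value did not pass the test.

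Rps21, a gene of the small subunit, had 591, 365, 410, 371 and 520 scaled TPM in KYDS+BGZ_L, against 209, 172, 137, 342 and 275 in BGZ_L. The 2 groups did not overlap. The log2 fold change was 1.04 ± 0.37 and did not pass the test (adjusted p = 0.060, limma), while it passed with the stricter filter on low values (adjusted p = 0.0497, limma) and in a fit of these 2 groups alone (adjusted p = 0.0283, limma). It also passed without KYDS 5 (adjusted p = 0.0486, limma), BGZ_L 4 (adjusted p = 0.0487, limma) or CON 3 (adjusted p = 0.03, limma). In the other alternatives that read this row it did not pass, among them scaling on the ribosomal protein median (adjusted p = 0.0919, limma). In KYDS against CON the value for Rps21 was 0.37 ± 0.37.

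The second Rps10 row (ENSRNOG00000052141) had 27.5, 19.6, 20.1, 12.3 and 22.7 scaled TPM in KYDS+BGZ_L, against 8.08, 10.03, 4.49, 17.1 and 1.51 in CON. The groups overlapped by CON 4 alone. Its log2 fold change of 1.55 ± 0.51 did not pass the test (adjusted p = 0.0536, limma). It passed without BGZ_L 3 (adjusted p = 0.0344, limma), without CON 4 (adjusted p = 0.0239, limma) and without both CON 2 and BGZ_L 3 (adjusted p = 0.0459, limma). It also passed with the stricter filter (adjusted p = 0.0417, limma) and without scaling (adjusted p = 0.0176, limma). In the other alternatives that read this row it did not pass, among them scaling on the ribosomal protein median (adjusted p = 0.0743, limma). This row had a mean of 12.88 scaled TPM, beside 246 for the main Rps10 row, and the 2 rows summed gave 0.12 ± 0.29 (adjusted p = 0.82, limma).

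Rps27l, a paralog of Rps27 known as a p53 target, had 91.6, 35.1, 31.1, 128 and 48.9 scaled TPM in KYDS+BGZ_L and 11.7, 11.5, 104.5, 25.8 and 35.5 in KYDS, against 22.5, 59.5, 43.4, 47.0 and 48.8 in BGZ_L and 15.98, 11.6, 62.9, 17.8 and 20.6 in CON. KYDS+BGZ_L lay above 4 of the 5 CON libraries, with CON 3 among its values. The log2 fold change in KYDS+BGZ_L against CON was 1.41 ± 0.56 (adjusted p = 0.0991, limma), and 1.80 without CON 3 (adjusted p = 0.0464, limma). Without scaling it was 2.305 (adjusted p = 0.0372, limma), and it did not pass in the other alternatives that read this row. Rps27 itself gave 0.08 ± 0.34 in that comparison.

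Rps19bp1 had 43.5, 20.01, 24.6, 22.0 and 26.3 scaled TPM in KYDS+BGZ_L, against 16.1, 11.2, 20.4, 19.3 and 14.48 in CON, with a log2 fold change of 0.70 ± 0.25 (adjusted p = 0.0718, limma). The values overlapped by KYDS+BGZ_L 2 against CON 3.

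Among large-subunit genes, Rpl17, Rpl3 and the second Rpl21 row (ENSRNOG00000032803) had negative fold changes in both hydrocortisone comparisons, none past the threshold. Rpl17 encodes a protein at the exit of the peptide tunnel, and Rpl3 one near the peptidyl transferase centre. Rpl17 had 320.3, 241, 265, 346 and 261 scaled TPM in KYDS+BGZ_L and 224, 239, 333, 182 and 362 in KYDS, against 238, 549, 509, 571 and 451 in BGZ_L and 585, 516, 488, 334 and 311 in CON. Its highest value in the hydrocortisone-treated groups, 362 in KYDS 5, was below 3 of the 5 CON values. The log2 fold change of Rpl17 was -0.74 ± 0.28 in KYDS against CON (adjusted p = 0.111, limma) and -0.64 ± 0.28 in KYDS+BGZ_L against BGZ_L (adjusted p = 0.117, limma). For Rpl3 these values were -0.69 ± 0.27 (adjusted p = 0.129, limma) and -0.51 ± 0.27 (adjusted p = 0.204, limma).

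Measured against the other ribosomal protein rows, by scaling each library on their median, Rpl17 was lower in KYDS+BGZ_L than in BGZ_L by -0.71 ± 0.17 (adjusted p = 0.0139, limma) and than in CON by -0.67 ± 0.17 (adjusted p = 0.0235, limma). Rpl3 was lower by -0.58 ± 0.17 (adjusted p = 0.0365, limma) and by -0.61 ± 0.17 (adjusted p = 0.0351, limma) in the same comparisons. For the second Rpl21 row the value passed against CON only, at -0.77 ± 0.23 (adjusted p = 0.0457, limma). One Rps19l2 row (ENSRNOG00000048199), which carries the annotation of ribosomal protein S19, was higher in KYDS+BGZ_L than in BGZ_L by 0.54 ± 0.15 (adjusted p = 0.0254, limma) and was the only other row called under that scaling. The other Rps19l2 row (ENSRNOG00000037897), also annotated as S19, went the other way. With the usual scaling it had 121.8 ± 17.6 (SD) scaled TPM in KYDS+BGZ_L and 139.3 ± 70.1 in BGZ_L. In KYDS against CON, Rpl17 (adjusted p = 0.087, limma) and Rpl3 (adjusted p = 0.119, limma) did not pass when scaled on the ribosomal protein median. The rows tested here also set the median, and scaling on it takes out the spread they share. These values therefore describe single rows relative to the list. Under that scaling 3 ribosomal protein rows were called in KYDS+BGZ_L against BGZ_L, and 3 in KYDS+BGZ_L against CON. The share of all genes called under it is not given here, so whether 3 rows are many or few cannot be judged. Under the usual scaling 17.4% and 11.5% of all genes were called in these comparisons. With the usual scaling, Rpl17, Rpl3 and the second Rpl21 row passed in KYDS+BGZ_L against BGZ_L without BGZ_L 1 (Rpl17: -0.86, adjusted p = 0.0235, limma).

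Rpl39, a small basic protein of the peptide tunnel, had 105, 95.2, 101, 134 and 103 scaled TPM in KYDS+BGZ_L and 59.1, 73.6, 33.1, 39.6 and 93.7 in KYDS, against 20.9, 13.95, 78.6, 110.1 and 114 in BGZ_L and 124, 162, 121, 100.3 and 95.4 in CON. Each KYDS value was below each CON value, and KYDS+BGZ_L overlapped CON. BGZ_L fell into 2 low and 3 high libraries. The log2 fold change of Rpl39 was 1.11 in KYDS+BGZ_L against BGZ_L and did not pass the test (it passed without BGZ_L 5, at 1.41 with an adjusted p = 0.0483 in limma, and without scaling, at 1.94 with an adjusted p = 0.0411 in limma). Its interaction value, 2.19 ± 0.67, ranked first by unadjusted p among the 85 rows and had an adjusted p of 0.999 in limma. The Rpl39 row held 22.7% of the L39 signal. Most of it lay in LOC103693375 (ENSRNOG00000043348, mean 303.5 scaled TPM), which had 136 and 441 scaled TPM in BGZ_L 1 and 2, the low Rpl39 libraries. The L39 rows summed gave 0.05 ± 0.39 in KYDS+BGZ_L against BGZ_L (adjusted p = 0.943, limma) and 0.67 ± 0.55 for the interaction (adjusted p = 0.999, limma).

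Rpl10l, a paralog of Rpl10 that is known mainly from testis, had 5.60, 2.97, 0.592, 3.17 and 1.99 scaled TPM in KYDS+BGZ_L, against 1.03, 0.952, 0, 1.03 and 1.28 in BGZ_L. The log2 fold change was 1.23 ± 0.46 (adjusted p = 0.0724, limma), and it is on a scale with 0.5 added, which understates differences at such levels. Rpl10l passed without KYDS+BGZ_L 3 (1.58, adjusted p = 0.022, limma) and without scaling (1.64, adjusted p = 0.0305, limma). In the other alternatives that read this row it did not pass. Rpl10 gave 0.36 ± 0.34. Of the other paralog pairs, Rpl7l1 was close to 0 in KYDS against CON (-0.001 ± 0.22), as was Rpl7 (-0.07 ± 0.32), and Rpl36a and Rpl36al gave -0.27 ± 0.30 and -0.20 ± 0.31. Rpl22l1, a paralog of Rpl22, gave -0.01 ± 0.36. Of other large-subunit rows, Rpl26 gave -0.34 ± 0.25. Rpl27 and Rps2 gave -0.19 ± 0.28 and -0.10 ± 0.38 in KYDS against CON. The second Rpl7a row (ENSRNOG00000047737) gave 0.91 ± 0.41 in KYDS+BGZ_L against CON (adjusted p = 0.148, limma), and the other Rpl7a row 0.37 ± 0.35. None of these passed the test in the main fit, that of all 20 libraries with the usual scaling and filter.

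The stalk proteins and Rpsa, the laminin-receptor homolog of the small subunit, did not pass the test in any comparison. In KYDS against CON the log2 fold changes were -0.31 ± 0.30 for Rplp0, -0.16 ± 0.31 for Rplp1, 0.09 ± 0.43 for Rplp2 and -0.26 ± 0.28 for Rpsa. Rpl41, the shortest ribosomal protein, had 1710, 719, 883, 1226 and 1372 scaled TPM in KYDS+BGZ_L and 467, 771, 1284, 508 and 1573 in KYDS, against 517, 1056, 1017, 924 and 822 in BGZ_L and 818, 849, 778, 762 and 747 in CON. The spread of Rpl41 was widest in the hydrocortisone-treated groups and narrowest in CON.

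Several rows held only a part of their protein's signal, and some of these switched between libraries. Whether the one accounts for the other was not tested. Rps6 encodes the small-subunit protein that S6 kinases phosphorylate. Its row (ENSRNOG00000049025) had 81.7, 1.48, 1.54, 92.3 and 1.41 scaled TPM in KYDS+BGZ_L libraries 1 to 5 and 0.816, 1.10, 130, 0.984 and 49.1 in KYDS, against 1.82, 24.8, 1.22, 2.10 and 2.83 in BGZ_L and 1.31, 1.51, 4.72, 1.38 and 1.38 in CON. The 5 libraries above 20 scaled TPM were KYDS+BGZ_L 1 and 4, KYDS 3 and 5, and BGZ_L 2, of which the first 4 had the highest hepatocyte marker sums. A row under the provisional name LOC100911372 (ENSRNOG00000007663), also annotated as ribosomal protein S6, lay between 109 and 278 in all 20 libraries. The 2 rows summed gave log2 fold changes of -0.30 ± 0.30 in KYDS against CON and 0.002 ± 0.30 in KYDS+BGZ_L against BGZ_L.

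Rpl30 likewise was at 0.26 in KYDS+BGZ_L 3, 0.243 in KYDS 1, 0 in BGZ_L 3 and 0.0396 in CON 4, and between 42.7 and 209 in the other 16 libraries. Its partner LOC100362027 (ENSRNOG00000032825) had 184, 102, 207 and 141 in those 4 libraries. The Rpl38 row was listed at 0 in 10 libraries and reached 70.02 in BGZ_L 5, and its values were equal in every library to those of 3 other rows annotated as L38. The L38 signal lay in LOC685963 (ENSRNOG00000030747), at 750.3 to 2026. The second Rpl32 row (ENSRNOG00000032605) was at 13.0 and 12.8 in KYDS+BGZ_L 1 and 4, at 11.98 in KYDS 3 and at 11.9 in CON 3, and at 33.5 to 151 in the other 16 libraries. How the authors' counting divided reads between near-identical rows is not given in the sources used here, so differences of such single rows are uncertain.

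**Figure D5:**
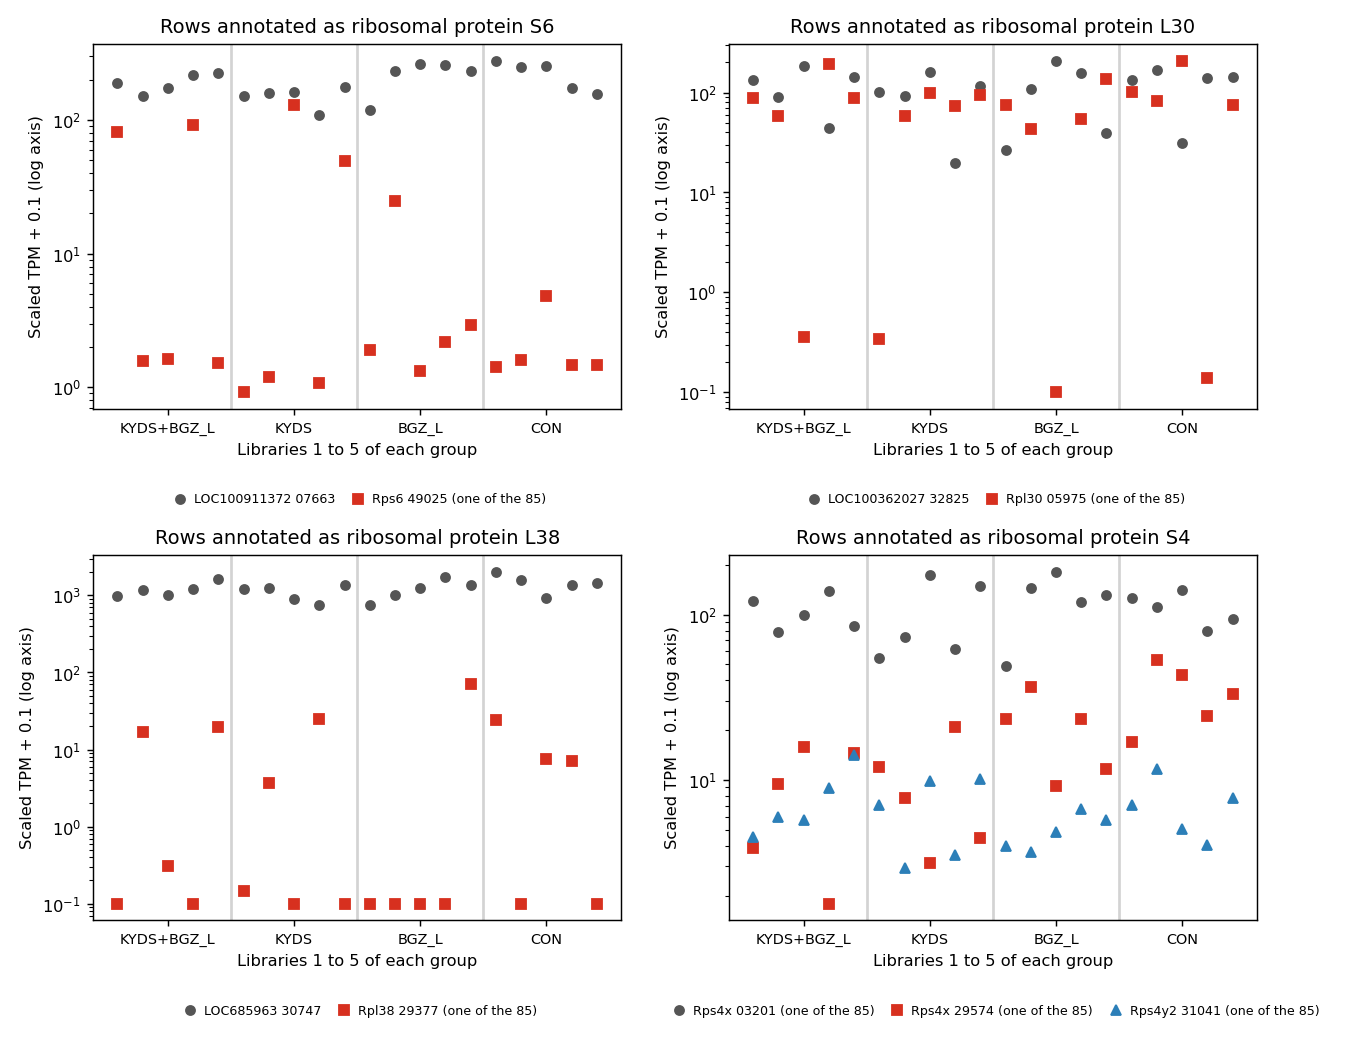
Scaled TPM plus 0.1 (vertical, log axis) in libraries 1 to 5 of each group for rows annotated as ribosomal proteins S6, L30, L38 and S4, with the last 5 digits of the identifier in the legend. The Rps6 row is above 20 in 5 libraries and under 5 in the other 15, the Rpl30 row drops in 4 libraries, and the Rpl38 row is listed at 0 in 10, while the rows with provisional names stay above 19, and the second Rps4x row has at most 15.8 in KYDS+BGZ_L and 20.8 in KYDS, against at least 16.9 in CON.

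Rows of each protein were therefore also summed. The deposited annotation gives 255 rat rows as cytosolic ribosomal proteins. Of these, 174 are outside the 85, most of them at very low values and 40 with a mean of at least 1 TPM. Summed by protein, 80 proteins averaged at least 1 scaled TPM and were kept. The 85 rows held 73.5% to 78.0% of the summed TPM per library. For 8 proteins no row was among the 85, among them S29, S30, L35a, L22, L8, S14 and S26, and for 15 under 50% of the TPM was. After summing, the median log2 fold change over the 80 proteins was -0.19 in KYDS against CON, 0.21 in KYDS+BGZ_L against BGZ_L, 0.14 in KYDS+BGZ_L against CON, 0.31 in KYDS+BGZ_L against KYDS and -0.05 in BGZ_L against CON. These lie close to the medians of the 85 rows.

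The one protein called after summing was S14, of the small-subunit platform, whose single row bears a provisional name (LOC100911847, ENSRNOG00000018774) and was chosen here after its values were seen. It had 308, 132, 160.0, 261 and 297 scaled TPM in KYDS+BGZ_L and 141, 179, 266, 37.5 and 367 in KYDS, against 50.8, 118, 10.3, 77.5 and 86.9 in BGZ_L and 151, 89.3, 74.96, 167 and 64.6 in CON. KYDS+BGZ_L and BGZ_L did not overlap, and the log2 fold change was 2.03 ± 0.60 (adjusted p = 0.0244, limma), with 17.4% of all features called in that fit. It was called in 16 of 20 fits with 1 library left out. It no longer passed when KYDS+BGZ_L 1 was left out (adjusted p = 0.0657, limma), nor without KYDS+BGZ_L 4 (0.0602), KYDS+BGZ_L 5 (0.0567) or BGZ_L 3 (0.0704). In KYDS against CON the value for S14 was 0.61 ± 0.60 (adjusted p = 0.555, limma).

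Genes around the ribosome were counted beside the ribosomal proteins. Rack1, a small-subunit component and signalling scaffold, gave -0.42 ± 0.24 in KYDS against CON and -0.25 ± 0.24 in KYDS+BGZ_L against BGZ_L, and did not pass the test. Of 18 elongation factors and other TOP mRNAs, 0 passed in KYDS against CON, where 6.27% of all genes were called. In KYDS+BGZ_L against BGZ_L 1 was lower, a smaller share than the 17.4% of all genes called there. It was Eif4b, a helper of the initiation helicase (-1.02 ± 0.21, adjusted p = 0.00444, limma). The median log2 fold changes over the 18 genes were -0.39 and -0.29 in these comparisons.

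Among ribosome assembly genes the snoRNP proteins Nop56 and Nop58 fell in KYDS and KYDS+BGZ_L against CON and in KYDS+BGZ_L against BGZ_L. Of 26 tested, 3 fell and 0 rose in KYDS against CON, where 6.27% of all genes were called, and the median was -0.25. Nop56 and Nop58, core proteins of the box C/D particles that methylate ribosomal RNA, fell by 1.94 ± 0.42 (adjusted p = 0.0146, limma) and by 1.68 ± 0.41 (adjusted p = 0.0246, limma), and Nob1, the nuclease that finishes small-subunit RNA, fell by 1.01 ± 0.27 (adjusted p = 0.0375, limma). After hydrocortisone with BGZ_L, against BGZ_L, 2 of 26 fell, a smaller share than the 17.4% of all genes called there, namely Nop56 (-1.60 ± 0.42, adjusted p = 0.0142, limma) and Nop58 (-1.99 ± 0.41, adjusted p = 0.00432, limma). In KYDS+BGZ_L against CON, 2 of 26 fell and 1 rose, which is near the 11.5% of all genes called there. Nop56 and Nop58 were again those that fell, and Nhp2, of the box H/ACA particle, rose by 0.89 ± 0.28 (adjusted p = 0.041, limma).

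Of 9 RNA polymerase I genes, 0 passed in KYDS against CON and 1, Polr1e, was lower in KYDS+BGZ_L against BGZ_L (-1.14 ± 0.28, adjusted p = 0.0103, limma). That is a smaller share than the 17.4% of all genes called in the latter comparison. Of 20 growth and mTORC1 genes, 1 rose and 1 fell in KYDS against CON (6.27% of all genes called), and 1 rose and 2 fell in KYDS+BGZ_L against BGZ_L (17.4% of all genes called), so the second count lies near the share of all genes. After hydrocortisone alone, Sesn2, a stress-induced inhibitor of mTORC1, rose by 1.63 ± 0.39 (adjusted p = 0.0232, limma), and Deptor, an mTOR-binding inhibitor, fell by 1.496 ± 0.42 (adjusted p = 0.0403, limma). Between KYDS+BGZ_L and BGZ_L, Mtor rose by 0.74 ± 0.23 (adjusted p = 0.0328, limma), Rps6kb2, an S6 kinase gene, fell by 1.25 ± 0.34 (adjusted p = 0.0176, limma) and Ddit4, another mTORC1 inhibitor, fell by 1.48 ± 0.29 (adjusted p = 0.00312, limma).

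The ribosomal proteins of mitochondria, whose ribosomes translate the mitochondrially encoded mRNAs, were counted apart. Of 76 tested rows, 3 fell and 0 rose in KYDS against CON, with a median of 0.03, and 4 rose and 2 fell in KYDS+BGZ_L against BGZ_L, with a median of 0.29. Both counts were below the shares of all genes called, 6.27% and 17.4%. Mrpl38 fell by 1.28 ± 0.27 (adjusted p = 0.0126, limma) in KYDS against CON. Mrpl33 rose by 1.25 ± 0.39 (adjusted p = 0.0331, limma) in KYDS+BGZ_L against BGZ_L. The row mrpl24 fell in both, by 1.05 ± 0.26 (adjusted p = 0.0271, limma) and by 1.08 ± 0.26 (adjusted p = 0.00987, limma). The difference between the cytosolic and mitochondrial medians was not tested.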

How the data were processed

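Liver RNA of 20 male rats was sequenced, with 5 rats in each of the 4 labelled groups. Per the labels' protocols, total RNA was made into TruSeq libraries and sequenced in pairs, and only read 1 was analysed. Although its name speaks of raw counts, the deposited table holds values with 2 decimals that sum to 914343 to 983962 per library. They were read as TPM that the authors computed. For aligner and counter, nothing is stated (not given in the sources used here), and the submitters' processing notes list mouse builds (GRCm39, GRCm38, mm10), whereas the identifiers are of rat, so no coordinates of the table were used. Sequences came from RefSeq (GRCr8), matched by symbol.

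The members and gene lists were chosen with earlier results of these data known. Scaling factors were unweighted trimmed means of log ratios, with trims of 30% on ratios and 5% on levels. The 11869 genes that reached 0.5 scaled TPM in 5 or more libraries were fitted as log2 of scaled TPM plus 0.5 in 1 limma model of 4 group means (R 4.3.3, limma 3.58.1, trended and robust prior, 16 residual degrees of freedom). Contrasts were two-sided, with Benjamini-Hochberg adjustment over all tested genes and a threshold of 0.05. Fold changes on this scale understate differences of low rows. No 2 libraries had identical values (highest correlation 0.964). The p-values measure the spread between these rats' libraries. Shares and medians over the 85 rows were given no test. The code was tested on simulated data.

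Rows of a protein were summed by the UniProt description in the deposited table. Named rows were the called ones (or the 3 with the smallest p in each direction), the 5 highest and 5 lowest, paralog pairs, stalk proteins, Rpsa, Rps6, Rpl41, the 4 most and 2 least variable rows, and rows that are no ribosomal protein. Other scalings, filters, added constants, a replicate block, a mitochondrial covariate, left-out libraries and summed rows were tried as alternatives. Markers of 9 other cell types or states were read and are given in the closing observations. Single values of 2 genes are not reported here; both stayed in the fits, counts and medians they belong to.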

Additional observations from a re-analysis of the deposited data

Results flagged for a closer look

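Among the ribosomal protein rows, 156 groups of 5 libraries were examined (37 named rows and 2 library measures in each of 4 groups), and in 18 of them 1 library lay far from the other 4. With independent, normally spread values about 1 in 20 groups would be marked. The row levels were not logged, the rows move together, and the 4 most variable rows were included. That rate therefore need not hold here, and the count of 18 was not tested against it. BGZ_L 1 had a median log2 level of 6.697 over the 85 rows, below the other BGZ_L libraries. The same library was lowest of its group for Rpl26 (289.7 scaled TPM), Rpl36al (166.8 scaled TPM) and Rpl3 (48.93 scaled TPM). It also held 40.7% of its nuclear TPM in ribosomal RNA and signal recognition particle RNA genes, and the part of that share in the low values was not tested.

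Rows that switch between libraries account for several of the others. Rps6 stood out at 24.81 scaled TPM in BGZ_L 2 and at 4.716 in CON 3. Rpl38 stood out at 24.82 in KYDS 4 and at 70.02 in BGZ_L 5, and the second Rpl32 row (ENSRNOG00000032605) at 11.98 in KYDS 3 and at 11.91 in CON 3. The second Rps10 row (ENSRNOG00000052141) was at 30.7 in BGZ_L 3, and Rpl10l was listed at 0 in the same library.

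Single high values were those of Rps19bp1 in KYDS+BGZ_L 1 (43.49 scaled TPM), Rpl39 in KYDS+BGZ_L 4 (134.3 scaled TPM), Rps27l in KYDS 3 (104.5 scaled TPM) and CON 3 (62.93 scaled TPM), Rpl7 in BGZ_L 4 (62.64 scaled TPM) and Rpl27 in CON 1 (737.2 scaled TPM).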

How the results depend on the processing

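Counts of called ribosomal protein rows were small and moved by 1 or a few rows with most settings, and the cause was not tested. In KYDS against CON the count of 1 became 0 over nuclear TPM, without a filter, with a covariate for the nuclear to mitochondrial ratio, with only the 2 groups in the fit, without both CON 2 and BGZ_L 3, with 1 row per symbol, scaled on the ribosomal protein median, and with rows of each protein summed, and it became 11 without scaling. In KYDS+BGZ_L against CON the count of 1 became 0 over nuclear TPM, with the mitochondrial covariate, with 1 row per symbol and with rows summed, 2 without scaling, under median-ratio scaling and with the plain limma prior, and 3 with the filter at 2 and scaled on the ribosomal protein median. In KYDS+BGZ_L against BGZ_L the count of 0 became 1 with the filter at 2, with only the 2 groups in the fit and with rows summed, and 3 without scaling and scaled on the ribosomal protein median. With 1 library left out the counts ranged from 0 to 2 in KYDS against CON, from 0 to 3 in KYDS+BGZ_L against BGZ_L and from 0 to 4 in KYDS+BGZ_L against CON. The counts of 2 in KYDS against CON came without BGZ_L 1 or CON 4, that of 3 in KYDS+BGZ_L against BGZ_L without BGZ_L 1 (1 without KYDS+BGZ_L 3, KYDS 5, BGZ_L 4, BGZ_L 5 or CON 3), and that of 4 in KYDS+BGZ_L against CON without CON 4 (3 without BGZ_L 3, and 2 without KYDS 4, BGZ_L 1 or CON 3).

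Medians over the rows moved by more than the within-group SD of the library medians (0.425) without scaling only, to 1.161 in KYDS against CON, 1.041 in KYDS+BGZ_L against BGZ_L, 1.026 in KYDS+BGZ_L against CON, -0.131 in KYDS+BGZ_L against KYDS and -0.15 for the interaction. With 1 library left out they ranged from -0.33 to -0.025 in KYDS against CON from 0.075 to 0.322 in KYDS+BGZ_L against BGZ_L, from 0.147 to 0.436 in KYDS+BGZ_L against KYDS and from 0.22 to 0.531 for the interaction. The share of all TPM, mitochondrial genes included, was 3.043% in KYDS+BGZ_L, 3.389% in KYDS, 1.698% in BGZ_L and 1.697% in CON. Without scaling, 101 of 228 results of named rows turned their sign. Rpl7l1, at -0.001 in KYDS against CON, was then 1.202 (adjusted p = 0.0405, limma), where the median of all genes was 1.032.

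The replicate numbers of the labels did not pair the rats: 7 of 30 correlations between same-numbered libraries were above 0.1 (-0.459 to 0.335), and for 2 of the 20 the best match carried the same number. With the replicate block the count in KYDS against CON was 0 (second Rps4x row, adjusted p = 0.0683, limma), and no other count of the 6 comparisons changed. Depth is unknown, so counting error could not be set beside the differences of low rows such as Rpl10l and the second Rps27a row.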

Other observations

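Markers of other cell types and states were read beside the ribosomal proteins. Of all genes, 6.27% were called in KYDS against CON and 17.4% in KYDS+BGZ_L against BGZ_L. Of 9 Kupffer cell and macrophage markers, 1 rose in KYDS against CON, Cd163, a scavenger receptor known to be induced by glucocorticoids (1.84 ± 0.40, adjusted p = 0.0151, limma). It also rose in KYDS+BGZ_L against BGZ_L (1.36 ± 0.40, adjusted p = 0.0258, limma). Of 7 stellate cell markers 1 rose, Pdgfrb, at 1.98 ± 0.33 in KYDS against CON (adjusted p = 0.0023, limma) and 2.20 ± 0.33 in KYDS+BGZ_L against BGZ_L (adjusted p = 0.000575, limma). The median log2 fold change over the 7 stellate cell markers was -0.59 in KYDS against CON and -0.051 in KYDS+BGZ_L against BGZ_L. Over the 9 Kupffer cell and macrophage markers it was 0.574 and -0.275 in the same comparisons. In KYDS+BGZ_L against BGZ_L the Kupffer cell and stellate cell counts were below the share of all genes called. Of 11 hepatocyte markers, 3 rose in KYDS against CON (Apob, Ttr and Tf) and 4 in KYDS+BGZ_L against BGZ_L (Alb, Apob, Ttr and Serpina1), and 0 fell. Ttr, the thyroxine carrier, rose by 2.39 ± 0.61 and 2.27 ± 0.61 in these comparisons (adjusted p = 0.0302 and 0.0166, limma).

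Of 3 tested neutrophil markers, S100a8 and S100a9 rose in KYDS+BGZ_L against BGZ_L (1.96 ± 0.65 and 1.90 ± 0.54, adjusted p = 0.0436 and 0.022, limma) and none passed in KYDS against CON. Of 4 tested proliferation genes, Birc5 rose in KYDS+BGZ_L against BGZ_L (1.08 ± 0.36, adjusted p = 0.0444, limma). In that comparison 17.4% of all genes were called. None of 5 tested cholangiocyte, 6 endothelial, 4 lymphocyte or 4 erythroid markers passed in either of these comparisons, and the 1 nuclear RNA with a row was not tested. Of 13 mitochondrially encoded genes 8 fell in KYDS against CON (6.27% of all genes called), for example Mt-nd1 (-2.35 ± 0.57, adjusted p = 0.0247, limma). In KYDS+BGZ_L against BGZ_L 0 of them passed.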
